A study of Mus musculus with 6 samples.

Results

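The RNA polymerase subunits and general transcription factors described here are 57 of the 12393 mouse genes measured in this series. They were taken by symbol, as every gene whose name starts with Polr1, Polr2, Polr3, Gtf2 or Gtf3, or with Taf and a digit, in the platform annotation. They comprise 24 polymerase subunits, 18 Gtf genes and 15 Taf genes. Each was represented by its probe set with 1 symbol and the highest mean log2 signal. The symbols Polr2k, Polr2l and Taf9 stand only on probe sets that also name another gene and were not analysed here.

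RNA from Ba/F3 cells, a mouse pro-B cell line that depends on interleukin 3 (IL3), was hybridised to 6 Affymetrix arrays. The lines carried an empty pMSCV retroviral vector and were kept in IL3, or carried the kinase fusion ETV6-PDGFRB or FIP1L1-PDGFRA in the same vector and had been selected to grow without IL3. Each line was left untreated or received 100 nM imatinib (Glivec), which inhibits the kinases ABL, KIT and PDGF receptor, for 4 h in medium with 10% serum. Each combination was hybridised to 1 array, and differences within a line are therefore unreplicated. Nothing in the labels says that the arrays came from separate cultures or clones, and the fusions were expressed from a transfected vector rather than from their own loci. In RNA from whole cultures, fewer expressing cells and less RNA per cell cannot be told apart.

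The arrays were alike in overall signal. The median signal per array was 19.8 to 21.1, and the trimmed mean (2% left out at either end) was 100.0 on all of them, so each value is relative to the other transcripts of its array. A signal floor of 20.1, the median of the arrays' 50th percentiles, was used, with anything below raised to this value. Of 11 pro-B and B cell markers, Cd79a, Cd79b and Igll1 were above the floor, while Pax5, Ebf1, Vpreb1, Rag1, Rag2, Dntt, Il7r and Blnk were below it on all 6 arrays. The summed signal of the 11 was 199 and 177 on the imatinib arrays of the ETV6-PDGFRB and FIP1L1-PDGFRA lines and 120.2 to 148 on the other 4 arrays. Its part in the results below was not tested. Of the markers of other cell types, 0 of 3 T cell and 0 of 2 erythroid genes were above the floor. Of 5 myeloid genes Csf1r and Adgre1 were, with a summed signal between 104 and 352, and of 4 fibroblast genes Acta2 was, with a summed signal between 51.7 and 480.3. These sums were lowest and highest, respectively, in ETV6-PDGFRB cells and, over both fusion lines, did not separate treated from untreated arrays. Within each fusion line both were lower with imatinib. The myeloid sum was 109 and 104 with ETV6-PDGFRB and 317 and 224 with FIP1L1-PDGFRA, against 341 and 352 in the IL3 pair. The fibroblast sum was 480.3 and 322, and 71.4 and 59.1, against 51.7 and 54.7 in the IL3 pair. These differences were not tested.

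Eukaryotic nuclei divide transcription between 3 related enzymes. Polymerase I makes the large ribosomal RNA precursor, polymerase II makes messenger RNA, and polymerase III makes transfer RNA, the smallest ribosomal RNA and other short RNAs. Each enzyme has its own large catalytic subunits, and some smaller subunits are shared. General factors bring the enzymes to promoters: SL1, built on TBP and its own TAF proteins, serves polymerase I, TFIIA to TFIIH with TFIID serve polymerase II, and TFIIIA, TFIIIB and TFIIIC serve polymerase III. In growing cells, growth factor signals are known to set the output of polymerases I and III in particular.

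Imatinib in the fusion lines was accompanied by lower signals of subunits that belong to polymerase I alone, by lower signals of part of polymerase III, and, as the arrays were deposited, by no change past the threshold in subunits that belong to polymerase II alone. The test was limma with the line as a block and 1 imatinib coefficient for both fusion lines, and an adjusted p (Benjamini-Hochberg, over all genes tested) under 0.05 is what "rose" and "fell" mean below. The test covered 54 of the 57 genes, those above the floor on 2 or more arrays. Gtf2a1l, Taf7 and Taf7l exceeded the floor on none of the 6. Of the 54, 9 (16.7%) fell, against 12.4% of all 6808 genes tested, and 4 (7.41%) rose, against 13.5% of all genes. Either way 13 of 54 (24.1%) passed, against 25.8% of all genes, so the set as a whole was close to the background. Its median log2 change was -0.02, and that of all genes was 0.04.

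The calls by class are to be read against the 12.4% of all genes that fell and the 13.5% that rose. Polymerase I alone had 3 of 3 members that fell, with a median log2 change of -0.83, while its subunit listed as Znrd1, which the symbol rule does not take, did not pass. Polymerase II alone had 0 of 8 that passed, with a median of 0.03 and values from -0.20 to 0.26. Polymerase III alone had 2 of 8 that fell and 1 that rose, with a median of -0.15 and values from -1.02 to 0.35. These class counts and medians are descriptions of few genes and carry no test against all genes. When the arrays were scaled to the hybridization controls instead, the median log2 change of all genes moved from 0.04 to -0.19, and 28.4% of all genes fell and 5.32% rose. In that analysis 19 members fell and 1 rose, polymerase I alone had 3 of 3 that fell, polymerase III alone 3 of 8, and polymerase II alone 2 of 8 (Polr2c and Polr2d), so the absence of calls in polymerase II depends on the scaling. Less the median of all genes, the medians of polymerases I, II and III were -0.87, -0.01 and -0.20 as first scaled and -0.88, -0.02 and -0.18 with the hybridization controls. That of polymerase III was -0.34 with the mean of a gene's probe sets and 0.02 with probe sets without _s, _x or _a endings. The median ratio of polymerase III with imatinib was -0.09 in ETV6-PDGFRB cells and -0.43 in FIP1L1-PDGFRA cells. Its position therefore depends on the probe set and the line. The p-values measure how far the imatinib response differs between the 2 fusion lines, together with the difference within the IL3 pair. Both fusion lines were needed to reach the threshold. With 1 of them left out, the IL3 pair alone supplied the residual spread of every gene. The calls lost there are therefore no result about the members. Without the ETV6-PDGFRB line, limma called 0 of 6808 genes and 0 of 54 members, with 2167 genes and 16 members at an unadjusted p under 0.05. Without the FIP1L1-PDGFRA line it also called 0 of each, with 2334 genes and 15 members at an unadjusted p under 0.05.

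**Figure D1:**
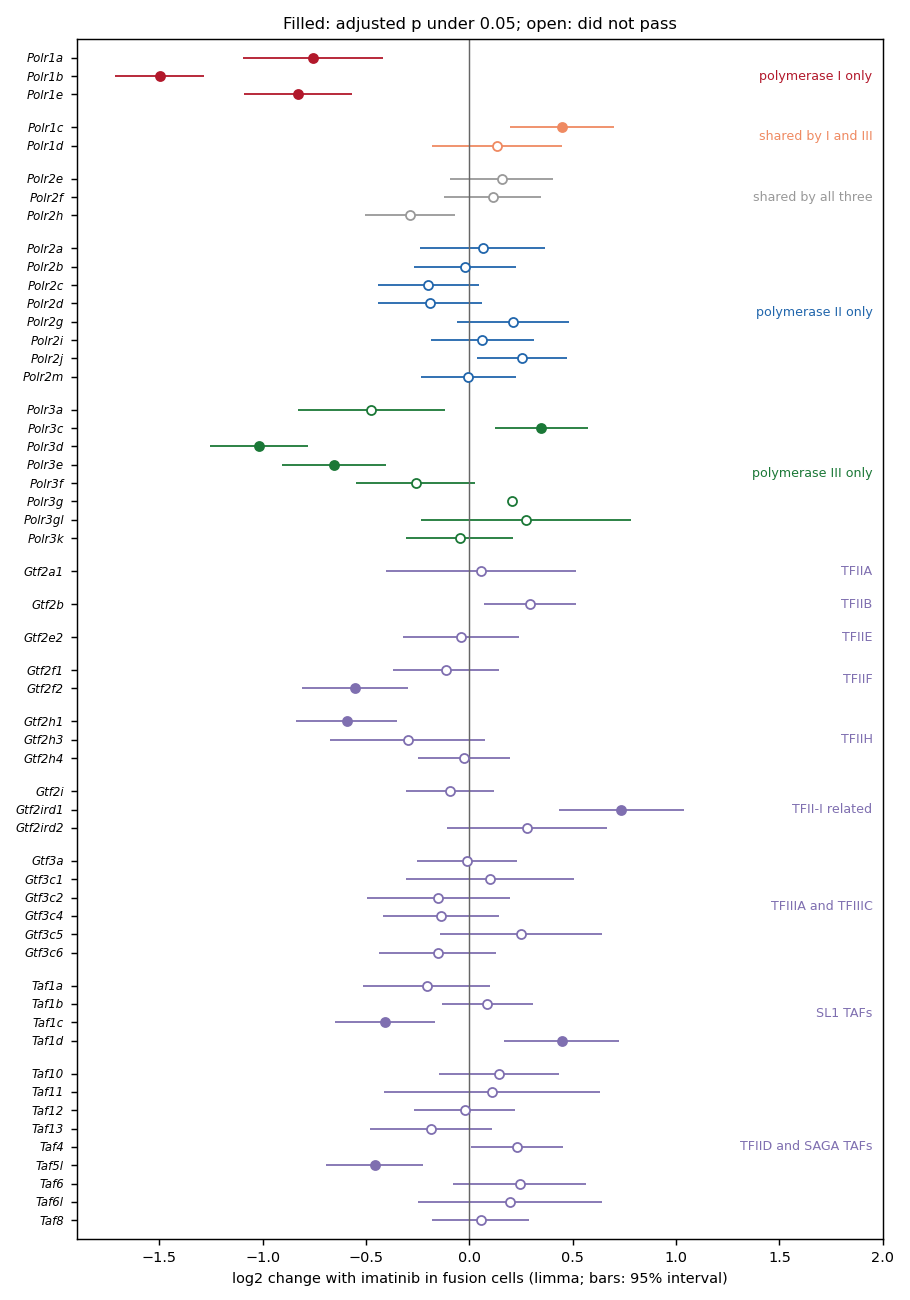
Log2 change with imatinib in fusion cells (horizontal axis, limma) for the 54 tested genes, with 95% intervals as bars and genes grouped by the complex they belong to. Filled points have an adjusted p under 0.05. The 3 polymerase I points lie between -1.50 and -0.76, and the 8 polymerase II points lie between -0.20 and 0.26 and are all open. Polr3g, below the floor on 2 arrays, has no bar.

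Polr1b, the second largest subunit of polymerase I, which forms the active site together with Polr1a, changed most. Its signal was 154 in untreated and 157 in imatinib-treated IL3 cells, 117 and 41.5 with ETV6-PDGFRB and 135 and 47.9 with FIP1L1-PDGFRA. The treated fusion arrays were the lowest of the 6, at well under the level of any other array, and the IL3 pair was level. The log2 change was -1.50 ± 0.08 (SE), 2.83-fold lower, with an adjusted p of 0.0027, and the ratio was -1.50 in each fusion line.

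Polr1a is the largest, catalytic subunit. Its signal was 53.0 and 65.6 in the IL3 pair, 58.9 and 33.0 with ETV6-PDGFRB and 51.6 and 32.2 with FIP1L1-PDGFRA. Both treated fusion arrays lay below all 4 others, while the treated IL3 array was the highest of all. The log2 change was -0.76 ± 0.13 (SE), 1.69-fold lower, with an adjusted p of 0.018 in limma. With the floor at the 60th percentile, above both treated fusion signals, the log2 change was -0.37 and Polr1a no longer passed (adjusted p 0.073).

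Polr1e is the subunit that forms a heterodimer on the side of polymerase I related to TFIIF and TFIIE. It gave 120.3 and 117 in the IL3 pair, 94.8 and 48.9 with ETV6-PDGFRB and 118 and 72.8 with FIP1L1-PDGFRA. The treated fusion arrays were again below all others without overlap. The log2 change was -0.83 ± 0.10 (SE), 1.77-fold lower, with an adjusted p of 0.0087 in limma. The polymerase I subunit listed under its older symbol Znrd1 had a log2 change of 0.02 ± 0.09 (SE) and did not pass, so the fall was not seen in every polymerase I subunit measured.

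**Figure D2:**
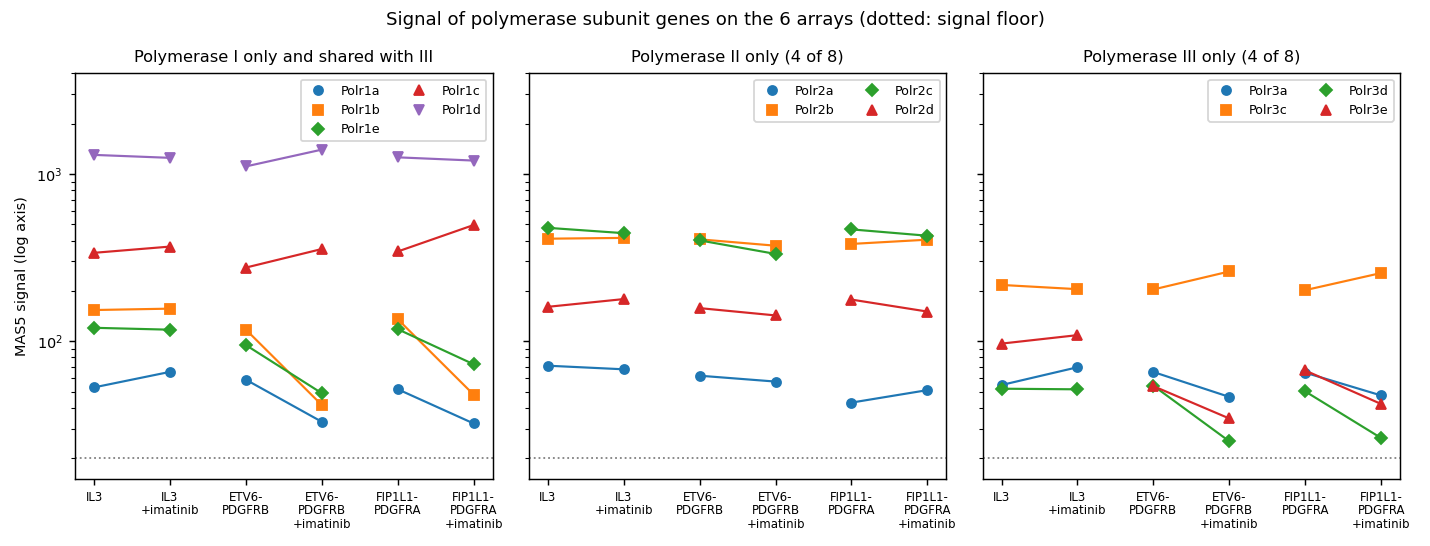
MAS5 signal (vertical log axis) of 13 subunit genes on each of the 6 arrays (horizontal axis), with a line joining the untreated and treated array of each cell line and the floor of 20.1 dotted. Not drawn are Polr2g, Polr2i, Polr2j and Polr2m of polymerase II alone, and Polr3f, Polr3g, Polr3gl and Polr3k of polymerase III alone. Polr1a, Polr1b, Polr1e, Polr3d and Polr3e slope down in both fusion lines and are lowest on the treated fusion arrays, while Polr2a to Polr2d stay within 1.5-fold of their untreated level.

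The promoters of these genes were read from the RefSeq table of the GRCm38.p6 assembly, which holds 250 bases before to 50 after each start. The 100 bases before the start are printed for the 3 polymerase I subunits because they fell together, with the named motif in capitals. Polr1a (chr6:71908953-71909052, + strand) has a CCAAT motif there, and Polr1b (chr2:129100896-129100995, + strand) and Polr1e (chr4:45018509-45018608, + strand) each have a GC box, GGGCGG.
Polr1a: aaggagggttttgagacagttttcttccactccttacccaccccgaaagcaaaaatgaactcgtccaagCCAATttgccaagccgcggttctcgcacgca
Polr1b: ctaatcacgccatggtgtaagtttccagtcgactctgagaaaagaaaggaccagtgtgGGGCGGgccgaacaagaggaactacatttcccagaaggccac
Polr1e: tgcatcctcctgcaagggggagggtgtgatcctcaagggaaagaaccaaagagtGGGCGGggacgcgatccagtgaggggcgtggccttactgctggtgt
None of the 3 windows held the E-box CACGTG, the motif bound by MYC and MAX, on either strand, and no motif of those searched was in all 3.

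The 2 subunits shared by polymerases I and III together form the platform on which both enzymes assemble. On their chosen probe sets they did not follow the polymerase I subunits. Polr1c gave 338 and 368 in the IL3 pair, 276 and 356 with ETV6-PDGFRB and 344 and 495 with FIP1L1-PDGFRA. It was higher after imatinib in all 3 lines, and the groups overlapped, since the treated ETV6-PDGFRB array lay below the treated IL3 array. Polr1c rose by a log2 change of 0.45 ± 0.10 (SE), 1.36-fold, with an adjusted p of 0.031 in limma. This call was lost in 8 of 13 alternative analyses, among them the fits that left out a fusion line, where all genes lost their calls. Polr1d gave 1299.8 and 1248 in the IL3 pair, 1109 and 1398 with ETV6-PDGFRB and 1257 and 1202 with FIP1L1-PDGFRA. It was higher after imatinib in 1 fusion line and lower in the other, with a log2 change of 0.13 ± 0.12 (SE) that did not pass. On another Polr1d probe set, described below, both fusion lines were lower with imatinib, at log2 ratios of -0.45 (ETV6-PDGFRB) and -0.23 (FIP1L1-PDGFRA). There the treated fusion arrays were the lowest, so the direction of Polr1d depends on the probe set.

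None of the 3 measured subunits common to all polymerases passed, and Polr2h had the largest difference among them. Its signal was 277 and 283 in the IL3 pair, 239 and 195 with ETV6-PDGFRB and 247 and 203 with FIP1L1-PDGFRA. The treated fusion arrays were lowest, and the log2 change of -0.29 ± 0.08 (SE) had an adjusted p of 0.063 in limma. Polr2h passed with the floor at the 60th percentile (0.041), with hybridization control scaling (0.013) and with scaling to the mean of all probe sets (0.042). Polr2e gave 497 and 535, 453 and 476, and 395 and 468 in the same order of lines, a log2 change of 0.16 ± 0.10 (SE). Polr2f had a log2 change of 0.11 ± 0.09 (SE).

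The large subunits of polymerase II did not pass. Polr2a, the catalytic subunit whose tail is phosphorylated during transcription, gave 71.4 and 67.9 in the IL3 pair, 62.2 and 57.4 with ETV6-PDGFRB and 42.9 and 51.0 with FIP1L1-PDGFRA. Its log2 change was 0.07 with a 95% interval from -0.24 to 0.37. Polr2b, the second largest subunit, gave 410.1 and 415, 406 and 372, and 382 and 405. These 6 signals overlapped between treated and untreated arrays, and the log2 change was -0.02 with an interval from -0.27 to 0.22. For comparison, the interval of the matching polymerase I subunit Polr1b ran from -1.71 to -1.28, and that of Polr1a from -1.10 to -0.42, below the whole interval of Polr2a.

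Among the smaller polymerase II subunits, the 2 values furthest from 0 were positive, the second by little over Polr2c at -0.20 and Polr2d at -0.19. Polr2j, a partner in the assembly platform, gave 494 and 481 in the IL3 pair, 527 and 641 with ETV6-PDGFRB and 484 and 567 with FIP1L1-PDGFRA. Polr2g, a subunit of the stalk, gave 592 and 591, 619 and 647, and 486 and 621. Their treated fusion arrays were the highest of the 6, but the log2 changes of 0.26 ± 0.09 (SE) and 0.21 ± 0.11 (SE) did not pass, with adjusted p of 0.084 and 0.19 in limma. Polr2c, Polr2d, Polr2i and Polr2m, which encode the other platform partner, the other stalk subunit, a small subunit and an associated protein, lay between -0.20 and 0.06. For Polr2d the treated fusion arrays were the lowest of the 6.

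Within polymerase III, both subunits of its TFIIF-like heterodimer fell. Polr3d gave 52.01 and 51.6 in the IL3 pair, 54.2 and 25.2 with ETV6-PDGFRB and 50.1 and 26.4 with FIP1L1-PDGFRA. The 4 other arrays were within 50.1 to 54.2, and the treated fusion arrays were near the floor. The log2 change was -1.02 ± 0.09 (SE), 2.02-fold lower, with an adjusted p of 0.0053 in limma. With the floor at the 60th percentile it was -0.29 with an adjusted p of 0.043, with both treated fusion signals under that floor.

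Polr3e, the partner of Polr3d, also stood at different levels in the untreated lines. It gave 96.8 and 109 in the IL3 pair, 53.9 and 34.5 with ETV6-PDGFRB and 66.8 and 42.1 with FIP1L1-PDGFRA. The order was IL3 cells, then untreated fusion cells, then treated fusion cells, with no overlap between these groups. The log2 change with imatinib was -0.65 ± 0.10 (SE), 1.57-fold lower, with an adjusted p of 0.013 in limma. With the mean of a gene's probe sets it was -0.36 and did not pass (adjusted p 0.13); the other Polr3e probe set was below the floor on every array.

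The catalytic subunit of polymerase III, Polr3a, was in the same direction without passing. It gave 54.7 and 69.9 in the IL3 pair, 65.4 and 46.5 with ETV6-PDGFRB and 64.8 and 47.4 with FIP1L1-PDGFRA. Treated fusion arrays were the lowest, as for Polr1a, and treated IL3 cells the highest. The log2 change of -0.47 ± 0.14 (SE) had an adjusted p of 0.062 in limma and was under the threshold in 5 of 13 alternative analyses, among them the one with the floor at the 60th percentile (0.043).

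The other polymerase III subunits did not form a common direction. Polr3c, in the trimer that opens the promoter, is named here because it was the only polymerase III subunit to rise. Its signals were 202 to 217 on the 4 other arrays and 261 and 256 on the treated ETV6-PDGFRB and FIP1L1-PDGFRA arrays. The log2 change was 0.35 ± 0.09 (SE), with an adjusted p of 0.043 in limma. This call was lost in 8 of 13 alternative analyses, among them the fits that left out a fusion line, where all genes lost their calls. Polr3f of the same trimer had a log2 change of -0.26 ± 0.11 (SE), and Polr3k, which takes part in termination, -0.05 ± 0.10 (SE). Neither passed.

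Polr3g and Polr3gl are paralogs that occupy the same place in the trimer, Polr3g being known from stem cells and tumours. Polr3gl gave 52.4 and 41.3 in the IL3 pair, 33.5 and 50.7 with ETV6-PDGFRB and 60.9 and 58.7 with FIP1L1-PDGFRA. Polr3g gave 30.5 and 25.5 in the IL3 pair and 23.8 and 31.7 in ETV6-PDGFRB cells, and was below the floor on both FIP1L1-PDGFRA arrays. Both genes were thus lower after imatinib in IL3 cells and higher after it in ETV6-PDGFRB cells. The log2 change of Polr3gl was 0.27 ± 0.20 (SE), and that of Polr3g was 0.21, and neither passed.

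**Figure D3:**
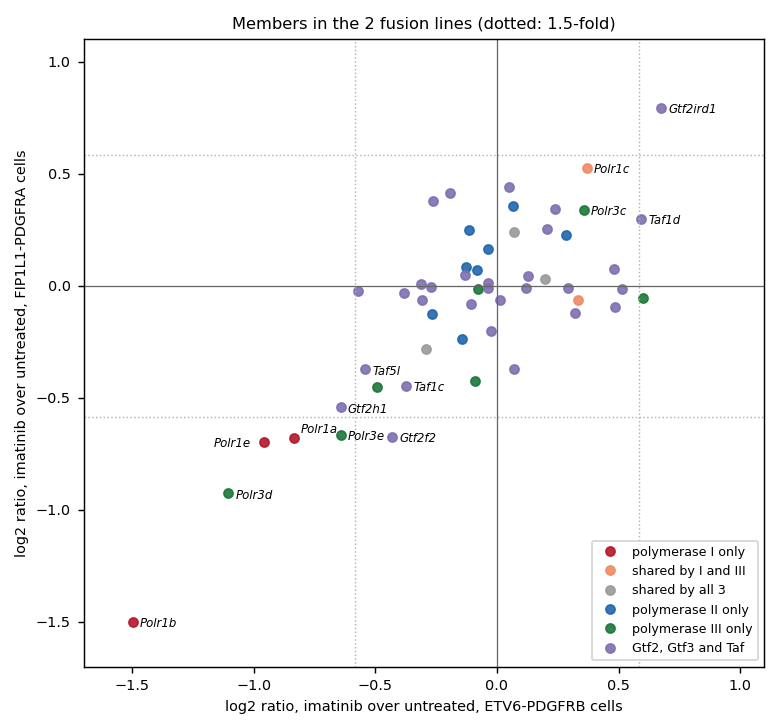
Log2 ratio of imatinib to untreated in ETV6-PDGFRB cells (horizontal axis) against the same ratio in FIP1L1-PDGFRA cells (vertical axis), 1 point per gene, 53 genes, coloured by polymerase class, with 1.5-fold dotted. Polr1a, Polr1b, Polr1e, Polr3d and Polr3e are the points past 1.5-fold lower in both lines, and Gtf2ird1 is the point past 1.5-fold higher in both.

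The general factors of polymerase II had a member past the threshold in TFIIF and in TFIIH. Gtf2f2, the small TFIIF subunit, gave 171 and 165 in the IL3 pair, 163 and 121 with ETV6-PDGFRB and 190.4 and 119 with FIP1L1-PDGFRA. Gtf2h1, a core subunit of TFIIH, gave 155 and 142, 151 and 96.4, and 133 and 91.2. In both genes the treated fusion arrays were below all others. The log2 changes were -0.55 ± 0.10 (SE, adjusted p 0.020 in limma) and -0.59 ± 0.10 (SE, adjusted p 0.015), 1.47-fold and 1.51-fold lower. Without the IL3 arrays in the fit Gtf2f2 did not pass (adjusted p 0.058).

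Their partners in the same factors did not pass. Gtf2f1, the large TFIIF subunit, gave 239 and 260.1 in the IL3 pair, 217 and 213 with ETV6-PDGFRB and 261 and 227 with FIP1L1-PDGFRA. Gtf2h3 of TFIIH gave 80.6 and 80.8, 103 and 69.6, and 59.0 and 57.9, so it was lower after imatinib in ETV6-PDGFRB cells and nearly level in FIP1L1-PDGFRA cells, and Gtf2h4 of TFIIH had a log2 change of -0.03 ± 0.09 (SE). Gtf2b, which is TFIIB and sets the start site, gave 312 and 315, 382 and 451, and 342 and 435. It was highest on the treated fusion arrays, with a log2 change of 0.29 ± 0.09 (SE) and an adjusted p of 0.065 in limma. It passed with the floor at the 60th percentile (adjusted p 0.043) and with the pseudocount of 16 (adjusted p 0.0498). With hybridization control scaling its log2 change shrank to 0.049 and did not pass.

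TFIIA and TFIIE were measured through 1 tested gene each. Gtf2a1, the precursor of the large TFIIA subunits, gave 65.1 and 76.4 in the IL3 pair, 66.3 and 55.3 with ETV6-PDGFRB and 61.9 and 80.4 with FIP1L1-PDGFRA. Gtf2e2, the beta subunit of TFIIE, gave 552 and 485, 458 and 419, and 578 and 597. In both genes the fusion lines went opposite ways with imatinib, and the log2 changes of 0.06 ± 0.18 (SE) and -0.04 ± 0.11 (SE) did not pass.

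Among Gtf2i, Gtf2ird1 and Gtf2ird2, which encode TFII-I and its relatives and are regulators of particular genes rather than parts of the general machinery, Gtf2ird1 rose. It gave 60.2 and 50.5 in the IL3 pair, 61.2 and 97.7 with ETV6-PDGFRB and 41.9 and 72.6 with FIP1L1-PDGFRA. The treated fusion arrays were the highest of the 6, and imatinib went with a lower signal in IL3 cells. The log2 change was 0.74 ± 0.12 (SE), 1.67-fold higher, with an adjusted p of 0.015 in limma. Gtf2ird2 gave 63.9 and 77.7, 37.2 and 51.9, and 61.2 and 64.5, with a log2 change of 0.28 ± 0.15 (SE), and Gtf2i had one of -0.09 ± 0.08 (SE).

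None of the measured TFIIIA and TFIIIC genes of polymerase III passed. Of Gtf3a, which is TFIIIA and serves the gene of the smallest ribosomal RNA, and the TFIIIC genes Gtf3c1, Gtf3c2, Gtf3c4, Gtf3c5 and Gtf3c6, 0 of 6 passed, with a median log2 change of -0.07. With hybridization control scaling 2 of the 6 fell (Gtf3c4 and Gtf3c6), so this count too depends on the scaling. Gtf3c5 gave 61.0 and 68.7 in the IL3 pair, 45.9 and 65.6 with ETV6-PDGFRB and 58.5 and 57.8 with FIP1L1-PDGFRA. Gtf3c6 gave 233 and 228, 226 and 182, and 233 and 235. The 2 fusion lines differed for both, and the log2 changes were 0.25 ± 0.15 (SE) and -0.15 ± 0.11 (SE).

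SL1, the factor that brings polymerase I to the ribosomal RNA genes, had 1 of 4 TAFs that fell and 1 that rose. Taf1c gave 122 and 111 in the IL3 pair, 99.1 and 76.5 with ETV6-PDGFRB and 104 and 75.9 with FIP1L1-PDGFRA. The treated fusion arrays were lowest, with a log2 change of -0.41 ± 0.09 (SE) and an adjusted p of 0.035 in limma. It did not pass without the IL3 arrays (0.078) or with the floor at the 40th percentile (0.063). Taf1d gave 176 and 168, 126 and 191, and 175 and 216, a log2 change of 0.45 ± 0.11 (SE) with an adjusted p of 0.039. Its other probe sets did not share that rise, as described below. With the mean of its probe sets Taf1d fell instead, at -0.70 with an adjusted p of 0.022 in limma. Taf1a and Taf1b had log2 changes of -0.21 ± 0.12 (SE) and 0.09 ± 0.09 (SE).

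Of 9 tested TAFs of TFIID and of the co-activator SAGA, which shares several of them, Taf5l alone passed. Taf5l, the SAGA relative of Taf5, gave 184 and 186 in the IL3 pair, 136 and 93.2 with ETV6-PDGFRB and 159.6 and 123.2 with FIP1L1-PDGFRA. The treated fusion arrays were the lowest, and the log2 change was -0.46 ± 0.09 (SE), 1.37-fold lower, with an adjusted p of 0.025 in limma, or 0.071 without the IL3 arrays. Taf6, a scaffold of TFIID, gave 80.4 and 74.4, 97.0 and 100.3, and 77.2 and 105. Its SAGA relative Taf6l gave 59.7 and 49.7, 61.9 and 86.7, and 53.9 and 50.5. The log2 changes of 0.24 ± 0.13 (SE) and 0.20 ± 0.17 (SE) did not pass, and the other tested TAFs, Taf10, Taf11, Taf12, Taf13, Taf4 and Taf8, lay between -0.19 and 0.23.

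Across the set, both treated fusion arrays lay below the other 4 arrays for 14 of 54 genes (25.9%), against 19.6% of all genes, and above them for 9 (16.7%), against 24.5%. Counted at 1.5-fold in 1 line at a time, 6 of 54 genes were lower with imatinib in ETV6-PDGFRB cells, against 9.24% of all genes, and 3 were higher, against 8.63%. In FIP1L1-PDGFRA cells 6 of 53 were lower, against 8.99%, and 1 was higher, against 9.03%. Polr1a, Polr1b, Polr1e, Polr3d and Polr3e were among the lower genes of both lines. Gtf2h1 was the sixth in ETV6-PDGFRB cells and Gtf2f2 the sixth in FIP1L1-PDGFRA cells. Gtf2ird1 was higher in both lines, and Polr3gl and Taf1d were higher in ETV6-PDGFRB cells.

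In the IL3 pair 0 of 54 genes passed 1.5-fold in either direction, against 0.914% of all genes higher and 0.539% lower. The largest differences there were -0.42 for Taf11, 0.35 for Polr3a and -0.34 for Polr3gl on the log2 scale. The difference between the imatinib response of fusion cells and that of IL3 cells was tested in limma with 1 residual degree of freedom. In this test 0 of 54 members passed, against 0 of 6808 genes, and the lowest adjusted p was 0.16 among members and 0.11 among all genes. At an unadjusted p under 0.05 there were 7 members (13%), against 17.3% of all genes. These were Polr1a, Polr1b, Polr1e, Polr3a, Polr3d, Polr3e and Gtf2ird1, with differences of -1.07, -1.53, -0.79, -0.83, -1.003, -0.82 and 0.99 on the log2 scale. With a pseudocount of 16 in place of the floor, Polr1b passed this test, at a difference of -1.25 and an adjusted p of 0.0095, as did 296 of all genes.

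Between untreated lines, where the 2 fusion lines share the IL3 array as their control, few of these genes differed. Against untreated IL3 cells, Gtf2ird2, Polr3e and Polr3gl were at least 1.5-fold lower in ETV6-PDGFRB cells (3 of 54, against 3.42% of all genes), at log2 ratios of -0.78, -0.85 and -0.65. Polr2a and Polr3g were lower in FIP1L1-PDGFRA cells (2 of 54, against 2.35%), at -0.73 and at least 0.61 lower, since the FIP1L1-PDGFRA signal of Polr3g was below the floor. None was 1.5-fold higher in either line, against 6.41% and 4.12% of all genes. Between the untreated fusion lines, Gtf2h3 was higher in ETV6-PDGFRB cells (5.09% of all genes), and Gtf2ird2, Polr3f and Polr3gl were lower (3.02%). With 1 array per group these ratios have no test.

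Genes with more than 1 probe set allowed the result to be read again on the same arrays. Of 30 further probe sets above the floor on at least 2 arrays, 19 had the sign of the chosen one for the mean ratio of the fusion lines, and so did 6 of 8 that belong to genes past the threshold. Another probe set of Polr1e gave 87.7 and 95.7 in the IL3 pair, 68.3 and 36.2 with ETV6-PDGFRB and 86.6 and 40.6 with FIP1L1-PDGFRA. Its mean ratio was -1.004, against -0.83 for the chosen one. Another of Polr3a gave 56.5 and 65.2, 62.8 and 35.0, and 53.6 and 38.1, a mean ratio of -0.67. Another of Polr3d was between 53.5 and 54.8 on 4 arrays, below the floor on the treated ETV6-PDGFRB array and at 20.5 on the treated FIP1L1-PDGFRA array. Another of Polr1a, between 20.9 and 25.5 on 4 arrays, was below the floor on both treated fusion arrays. For Polr1b, Gtf2f2, Gtf2h1, Taf1c and Taf5l, and for Polr3e and Gtf2ird1 above the floor on at least 2 arrays, there was no other probe set.

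The 11 of opposite sign belonged to Taf1d, Polr1d, Gtf2h4, Gtf2i, Gtf3c2 and Polr3k. Of these genes Taf1d alone had passed the threshold. The further probe sets of Taf1d had mean ratios of -0.72, -0.09 and 0.02, against 0.45 for the chosen one. The first of these gave 101 and 88.3 in the IL3 pair, 87.5 and 54.8 with ETV6-PDGFRB and 145 and 84.7 with FIP1L1-PDGFRA, so it was lower where the chosen probe set was higher. The direction of Taf1d therefore depends on the probe set. Another probe set of Polr1d gave 575 and 573, 537 and 392, and 602 and 514, a mean ratio of -0.34 against 0.13. For Polr1c and Polr3c, further probe sets had mean ratios of 0.25 and 0.13, smaller than the 0.45 and 0.35 of the chosen ones.

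**Figure D4:**
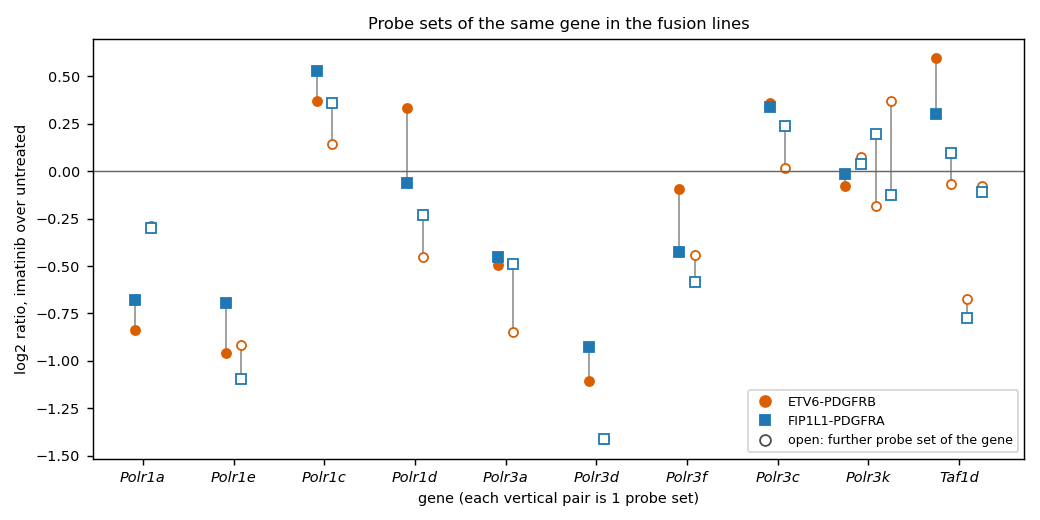
Log2 ratio of imatinib to untreated (vertical axis) for each probe set of 10 genes (horizontal axis), circles for ETV6-PDGFRB and squares for FIP1L1-PDGFRA cells, filled for the chosen probe set and open for others above the floor on at least 2 arrays. All probe sets drawn for Polr1a, Polr1e, Polr3a, Polr3d and Polr3f are below 0 in both lines, and those of Polr1d and Taf1d lie on both sides of 0. The further Polr1a, Polr3d, Polr3f and Taf1d points include arrays set to the floor.

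A list of partner genes of the polymerases, which are not members by symbol, was counted in the same fit, to be read against the 12.4% of all genes that fell and the 13.5% that rose. Of 6 genes in the list for polymerase I, which held its cofactors and the subunit Znrd1, 1 fell. That was Rrn3, the factor that joins polymerase I to SL1, at 136 and 115 in the IL3 pair, 104 and 58.1 with ETV6-PDGFRB and 124 and 80.1 with FIP1L1-PDGFRA, a log2 change of -0.73 ± 0.12 (SE, adjusted p 0.016 in limma). Ubtf, which binds along the ribosomal RNA genes, had a log2 change of -0.16 ± 0.11 (SE) and did not pass. Of 5 tested genes of polymerase III initiation and repression, 2 rose and 0 fell. Maf1, the repressor that binds polymerase III when growth signals stop, gave 374 and 360.1 in the IL3 pair, 460.0 and 619 with ETV6-PDGFRB and 325 and 585 with FIP1L1-PDGFRA. Its log2 change was 0.64 ± 0.13 (SE, adjusted p 0.024), and Snapc2, a subunit of the complex for small nuclear RNA genes, had one of 0.49 ± 0.09 (SE, adjusted p 0.022). Thus Maf1 was highest and Polr3d lowest on the same treated fusion arrays.

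In the other lists the counts past the threshold ran from 0 of 9 to 2 of 7, against 25.8% of all genes. For TBP and the TFIIH subunits without a Gtf name it was 0 of 9, with Tbp at 0.01 ± 0.09 (SE), and for assembly factors of polymerases 0 of 6. For polymerase II pausing and elongation 1 of 24 rose (Nelfb, a subunit of the pausing factor NELF) and 2 fell (Ell, an elongation factor, and Ctdp1, a phosphatase of the polymerase II tail). For Mediator, which links activators to polymerase II, 1 of 28 rose (Med6) and 3 fell (Cdk8, Med22 and Med26), with Cdk8 at -0.60 ± 0.09 (SE, adjusted p 0.014 in limma). For mitochondrial transcription 1 of 7 rose (Mterf2) and 1 fell (Tefm, an elongation factor), at 0.96 ± 0.12 (SE, adjusted p 0.0086) and -0.72 ± 0.09 (SE, adjusted p 0.0086).

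**Figure D5:**
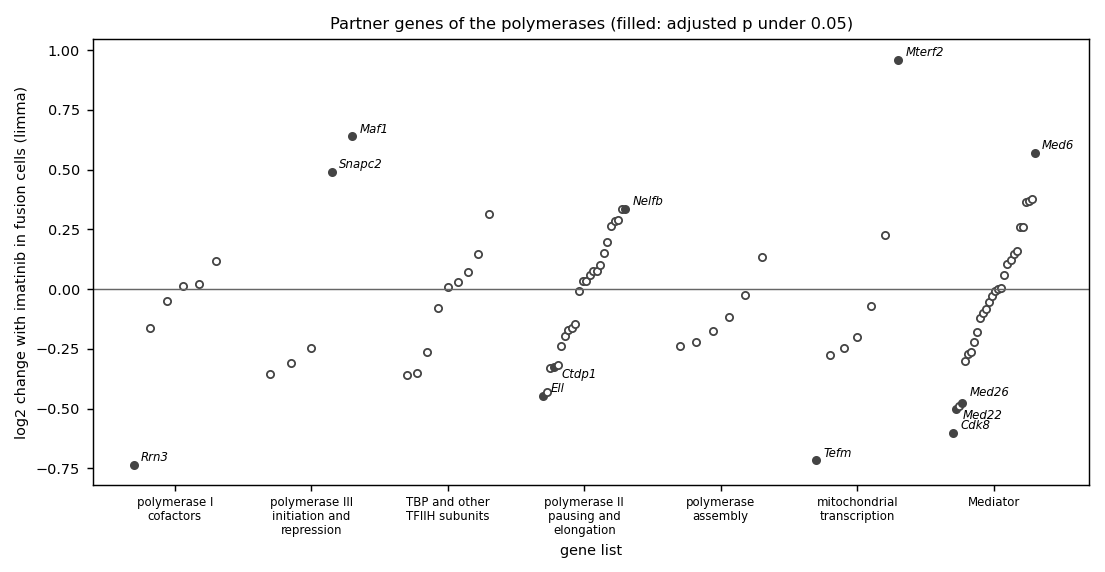
Log2 change with imatinib in fusion cells (vertical axis, limma) for partner genes in 7 lists (horizontal axis), 1 point per tested gene, sorted within each list, filled where the adjusted p was under 0.05. Rrn3 is the lowest point among polymerase I cofactors at -0.73, Maf1 and Snapc2 are the highest in the polymerase III list, and Mterf2 at 0.96 is the highest of all.

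Promoter windows of 300 bases were found in the RefSeq table for 51 of the 57 genes, among them 8 of the 9 that fell. The E-box CACGTG stood in the windows of 14 of 51 genes (27.5%), against 8.09% of all 27025 genes with a window. By call it was in 3 of the 8 that fell (Gtf2h1, Polr3e and Taf5l), 1 of the 4 that rose and 9 of 37 (24.3%) that did not pass. The GC box GGGCGG was in 64.7%, against 38.2% of all genes, and the ETS motif CCGGAAG in 39.2%, against 9.93%. CCAAT was in 35.3%, against 41.1%, and TATAAA in 15.7%, as in all genes, with 0 among the 8 that fell. The 27025 genes were not limited to those above the floor, as nearly all members were. These shares are therefore not matched for expression. Both strands were searched, no 2 of these motifs contain each other, and a match is a description of the sequence. An E-box stretch of each of the 3 genes that fell is printed with the motif in capitals, for Polr3e at chr7:120917772-120917797 (+ strand), Gtf2h1 at chr7:46796054-46796083 (+ strand) and Taf5l at chr8:124021031-124021056 (- strand). With the start as base 1, the matches of Polr3e and Taf5l begin after it, at bases 6 and 12, and that of Gtf2h1 begins 26 bases before it. Gtf2h1 has another match at base 10, which is not printed.
Polr3e: cccgctcccccCACGTGtccggcgga
Gtf2h1: gccgcggtggtggtCACGTGctccggaggc
Taf5l: gagcgaccccgCACGTGgcggccccg

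The window of Polr3e also contained the B box motif, the internal promoter element of transfer RNA genes to which TFIIIC binds, searched as GGTTCGA, then any base, then TCC. Polr3e alone of the 51 genes had this motif, which stood in the windows of 15 of 27025 genes (0.0555%). The RefSeq table places the transfer RNA gene n-TLaag4 over 71 bases of this window, and the B box begins 201 bases before the start of Polr3e. The stretch is at chr7:120917528-120917627 (+ strand), with the B box in capitals.
Polr3e: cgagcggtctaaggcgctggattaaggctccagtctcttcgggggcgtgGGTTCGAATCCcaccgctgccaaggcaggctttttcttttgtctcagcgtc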

How the data were processed

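Per the submitters' processing notes, the authors produced the deposited intensity values with GCOS 1.4.0 and MAS5. They are linear signals, 1 for each probe set on each array, and neither detection calls nor background settings are given in the sources used here. From these, signals below 20.1 (the median of the arrays' 50th percentiles) were set to that floor and log2 was taken. The 6808 genes that exceeded it on 2 or more arrays were fitted with limma 3.58.1 in R 4.3.3, with the line as a block, 1 imatinib coefficient for fusion cells, moderated variances and Benjamini-Hochberg adjustment. This left 2 residual and 3.10 prior degrees of freedom. A second fit gave the IL3 pair its own coefficient. The script was tested on simulated data. Ratios of 2 arrays used a 1.5-fold limit.

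Per-array values are given for the 2 largest subunits of each polymerase, paralog pairs, genes past an adjusted p of 0.05 with a log2 change of at least 0.5, and the 2 members of each class with the largest change. Members and lists were chosen with earlier results of these data known. All 57 members were found in the RefSeq table of GRCm38.p6 under the same symbol. Its promoter windows were searched with exact letters. The files name no genome build. Precision is limited by the number of arrays.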

Additional observations from a re-analysis of the deposited data

Results flagged for a closer look

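With imatinib, Polr1a, Polr1b, Polr3a, Polr3e and Gtf2ird1 moved in both fusion lines in the direction opposite to the IL3 pair. The difference on the log2 scale, fusion lines minus IL3 pair, was -1.07 for Polr1a, -1.53 for Polr1b, -0.83 for Polr3a, -0.82 for Polr3e and 0.99 for Gtf2ird1. In limma's test of this difference none had an adjusted p under 0.05. The IL3 ratio of Polr1b was 0.03, close to no difference.

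Polr3gl, Gtf2a1 and Taf11 had ratios of opposite sign in the fusion lines. The difference, ETV6-PDGFRB minus FIP1L1-PDGFRA, was 0.65 for Polr3gl, -0.64 for Gtf2a1 and -0.61 for Taf11. The difference was not tested for any of them, since each group is 1 array.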

How the results depend on the processing

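The fit pairs the arrays of each line through the line block, and the labels give no replicate numbers for any other pairing. Every gene that rose or fell in the main analysis, except Taf1d, kept its direction under every alternative in which it was tested. With no filter on dim genes Polr1b still passed, while Polr1a, Polr1e, Polr3d and Polr3e did not. The genes that rose, 4 in the main analysis, numbered 1 with the floor at the 40th percentile, 0 with no filter on dim genes, 2 with scaling to the mean of all probe sets, and 1 each with scaling to the hybridization controls, the mean of a gene's probe sets, probe sets without _s, _x or _a endings, or the 4 fusion arrays alone. The genes that fell, 9 in the main analysis, numbered 1 with no filter, where all 12393 genes were tested, 19 with hybridization control scaling and 6 with the 4 fusion arrays alone, where Gtf2f2, Taf1c and Taf5l no longer passed. Hybridization control scaling moved Taf1c to -0.65 and Taf5l to -0.70. It also moved the median log2 change of all genes from 0.04 to -0.19, and the share of calls that rose from 52.1% to 15.8%. With the mean of all probe sets this share was 41.6%. Under hybridization control scaling the medians of polymerases I and II were -1.07 and -0.21. Relative to the median of all genes they were -0.88 and -0.02, against -0.87 and -0.01 in the main analysis. With either fusion line left out, 0 genes rose and 0 fell.

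Counts at 1.5-fold moved too. In ETV6-PDGFRB cells, 3 genes were lower with the floor at the 60th percentile and 10 with hybridization control scaling, while 0 were higher with that scaling or a pseudocount of 16, and 1 with scaling to the mean of all probe sets or with probe sets without _s, _x or _a endings. In FIP1L1-PDGFRA cells, hybridization control scaling gave 12 lower and 0 higher. For untreated FIP1L1-PDGFRA against IL3 cells the count was 1 with the floor at the 60th percentile and 0 with the pseudocount, and for the untreated fusion lines it was 1 and 2. At a 2-fold limit, 2 genes were lower and 0 higher in ETV6-PDGFRB cells, 1 lower and 0 higher in FIP1L1-PDGFRA cells, and 0 differed between untreated lines. The pseudocount gave 1 gene that differed from the IL3 pair.

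Taf1d reversed to -0.70 with the mean of its probe sets, where it fell (adjusted p 0.022 in limma). It reversed to -0.094 without those endings, where it did not pass. Other reversals were of values that did not pass in either analysis. With hybridization control scaling they were Polr1d (-0.11), Polr2e (-0.086), Polr2a (-0.18), Polr2g (-0.033), Gtf2a1 (-0.19) and Taf6l (-0.046), and with the mean of a gene's probe sets Polr1d (-0.10) and Gtf2a1 (-0.010). With 1 fusion line left out in turn, values ran from -0.064 to 0.33 for Polr1d, -0.12 to 0.25 for Polr2a, -0.13 to 0.084 for Polr2b, -0.053 to 0.60 for Polr3gl, -0.26 to 0.38 for Gtf2a1, -0.13 to 0.047 for Gtf2e2, -0.015 to 0.52 for Gtf3c5, -0.31 to 0.0082 for Gtf3c6 and -0.093 to 0.49 for Taf6l. The cause was not tested.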

Other observations

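The 3' control probe set for the ribosomal RNA of the small subunit gave 36.4 and 29.8 in the IL3 pair, 39.6 and 37.5 with ETV6-PDGFRB and 37.0 and 38.6 with FIP1L1-PDGFRA. These 6 signals overlapped between treated and untreated arrays. The 5' probe set gave 20.8 and 23.5, 30.7 and 21.7, and 21.4 and 19.6 in the same order, and the middle one 10.2 and 14.4, 22.9 and 16.3, and 14.96 and 13.3. Both were lower with imatinib in the fusion lines and higher in the IL3 pair, at signals near or below the floor of 20.1, and the differences were not tested.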
